A study of Homo sapiens with 6 samples.

Results

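The genes described here are YAP1 and WWTR1, which encode the coactivators YAP and TAZ, their DNA-binding partner TEAD1, the negative regulators LATS2, AMOTL1 and AMOTL2, the LATS inhibitor AJUBA, and the classic targets CTGF, CYR61 and ANKRD1. They were found by symbol in a deposited gene table of 58735 genes. All 10 were present once and all 10 passed the filter on low counts, as did 13787 genes in all. CTGF and CYR61 are older symbols, kept as the table writes them, for CCN2 and CCN1.

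RNA was sequenced from ARPE-19, a spontaneously arising line of human retinal pigment epithelium (RPE). There were 3 libraries of cells overexpressing CD51-ICD (OE CD51 ICD) and 3 libraries of cells labelled NC, whose genotype is given as wild type. CD51 is integrin alpha V, the product of ITGAV. The labels do not give the vector, its promoter, the time after transfer or whether a line is 1 clone. Whether replicates were grown as separate cultures is not stated either. Each p-value sets the difference between groups against the spread among libraries alone, which may be technical.

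In the Hippo pathway, the kinases LATS1 and LATS2 phosphorylate YAP and TAZ and keep them out of the nucleus. Unphosphorylated YAP and TAZ enter the nucleus, bind TEAD proteins and raise transcription of genes such as CTGF, CYR61 and ANKRD1, and also of AMOTL2 and LATS2, which feed back on the pathway. Matrix stiffness, integrin adhesion and cell density are known inputs, and CTGF also responds to TGF-beta and SMAD proteins.

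TEAD proteins bind the letters GGAATG, and the promoter of CTGF holds that hexamer 3 times. It is shown because CTGF had the largest change of the 10 genes. The sequence is the 250 bases before the RefSeq start on GRCh38.p14, at chr6:131951373-131951622 on the minus strand, with GGAATG in capitals.

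CTGF: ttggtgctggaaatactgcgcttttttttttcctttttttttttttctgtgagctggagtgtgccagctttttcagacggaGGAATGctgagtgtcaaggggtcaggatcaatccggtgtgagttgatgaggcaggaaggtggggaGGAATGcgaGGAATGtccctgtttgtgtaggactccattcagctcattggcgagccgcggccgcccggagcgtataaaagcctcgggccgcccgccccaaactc

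The matches begin 169, 104 and 95 bases before the start. Over 35116 RefSeq promoters, searched on both strands over the same 250 bases, 11.9% held GGAATG at least once, 0.940% at least 2 times and 29 promoters at least 3 times. RefSeq promoters were matched for 8 of the 10 genes, and CYR61 and TEAD1 had no entry. ANKRD1 held the hexamer at 2 places and YAP1 at 1. AMOTL2 and AJUBA each held it in 1 of 2 alternative promoters, the second entry for each. AMOTL1, LATS2 and both promoters of WWTR1 held none. Counted by gene, with a match in any promoter enough, 5 of the 8 genes held it (62.5%), beside 14.3% of 27305 genes with an entry. The genes were chosen for their place in this pathway, several as known targets, so this contrast is no test of enrichment. The 30-base stretches below show the letters around each match outside CTGF, on the strand of the gene, with the match in capitals, in the order of their description. In AMOTL2 the hexamer lies on the opposite strand and reads CATTCC.

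ANKRD1, chr10:90921290-90921319: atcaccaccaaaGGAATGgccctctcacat
ANKRD1, chr10:90921198-90921227: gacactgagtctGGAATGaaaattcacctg
YAP1, chr11:102110273-102110302: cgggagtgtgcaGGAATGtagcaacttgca
AMOTL2, chr3:134374499-134374528: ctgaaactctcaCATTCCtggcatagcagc
AJUBA, chr14:22976884-22976913: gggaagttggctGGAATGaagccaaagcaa

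The SMAD letters CAGAC, which occurred in 38.0% of promoters, each entry counted singly, were present in CTGF and ANKRD1 and also in AMOTL1, AMOTL2 and AJUBA. AMOTL2 and AJUBA held CAGAC only in the first of 2 entries and GGAATG only in the second. In ANKRD1 1 of its CAGAC matches shares a base with a GGAATG match. The CArG box of serum response factor, which occurred in 1.16% of promoters, had no match in any of the promoters found. A match of letters is a description and does not show that a factor binds there.

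Total counts were 14577912 to 15640428 in the OE CD51 ICD libraries and 13616694 to 16934668 in the NC libraries. ITGAV averaged 448 ± 83.5 CPM (counts scaled to library depth, with the TMM factors of edgeR) in OE CD51 ICD and 98.4 ± 12.9 CPM in NC (SD, n = 3 each), and gene counts do not separate a construct from the cell's own transcript. Of 12 RPE markers, 8 were tested, of which RLBP1, PMEL, PAX6 and TJP1 were called higher and MITF lower. OTX2, KRT8 and KRT18 did not pass. That is 62.5% called, beside 51% of all genes tested. RPE65 and TTR had no count in any library. Summed levels were 4734 to 5442 CPM in OE CD51 ICD and 5230 to 5684 CPM in NC for the RPE markers, with KRT8 and KRT18 as most of it. For 6 microglia and macrophage markers they were 0.358 to 0.957 CPM in OE CD51 ICD and 0.463 to 0.496 CPM in NC. For 5 endothelial markers they were 0.572 to 1.57 CPM in OE CD51 ICD and 2.14 to 2.83 CPM in NC. For 6 fibroblast markers they were 374 to 415 CPM in OE CD51 ICD and 213 to 238 CPM in NC, nearly all from PDGFRB, while DCN had no count. The part of these markers in the results below was not tested.

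Of the 10 genes, 6 were higher and 3 lower, while 1 did not pass at an adjusted p under 0.05, by edgeR's quasi-likelihood test with Benjamini-Hochberg adjustment over all genes tested. CTGF, TEAD1, YAP1, CYR61, WWTR1 and AMOTL1 were the higher genes, AMOTL2, ANKRD1 and AJUBA the lower ones, and LATS2 was the gene that did not pass. Over all 13787 genes tested, 25.2% were called higher and 25.8% lower, 51% in all. The median log2 fold change was 0.28 for the 10 genes and 0.01 for all genes tested. Only CTGF and AMOTL2 changed by at least 2-fold, in opposite directions, and over all genes tested 6.89% were higher and 5.83% were lower by that much. The CPM of OE CD51 ICD and NC libraries did not overlap for 8 of the 10 genes, 5 of them higher and 3 lower, beside 57.5% of all genes tested, 28% higher and 29.5% lower.

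**Figure D1:**
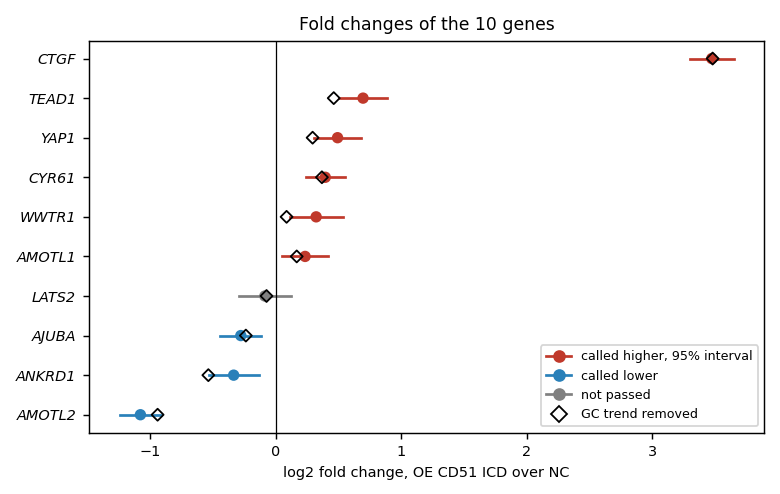
Log2 fold change of each of the 10 genes, OE CD51 ICD over NC, with its 95% interval as a line and the value with each library's GC trend removed as an open diamond. CTGF at 3.47 and AMOTL2 at -1.08 lie far from the other 8 genes, and the diamonds of TEAD1, YAP1 and WWTR1 lie nearer to 0 than their points.

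The CCN targets CTGF and CYR61 both rose, by very different amounts. CTGF (ENSG00000118523, chromosome 6, 131948176 to 131951373) encodes connective tissue growth factor, a secreted matricellular protein that binds integrins and is prominent in fibrosis. CTGF was at 2975, 2932 and 2759 CPM in OE CD51 ICD replicates 1, 2 and 3 and at 251, 252 and 278 CPM in NC replicates 1, 2 and 3. The lowest OE CD51 ICD library was far above the highest NC library. The rise was 11.1-fold (log2 3.47 ± 0.09 SE, adjusted p = 1.10e-23), and 61 of all genes tested, CTGF included, rose by at least as much. CTGF made up 0.282% of all counts in OE CD51 ICD libraries and 0.0265% in NC libraries on average.

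CYR61 (ENSG00000142871, chromosome 1, 85580761 to 85583962) encodes another secreted integrin ligand of the same family. CYR61 was at 1514, 1433 and 1469 CPM in OE CD51 ICD and at 1107, 1135 and 1117 CPM in NC. The groups did not overlap, and libraries within a group lay close together. The rise was 1.31-fold (log2 0.39 ± 0.07 SE, adjusted p = 5.81e-05). CYR61 was among the most abundant transcripts in both groups, at rank 49 of the tested genes by mean FPKM (counts per kilobase of gene, scaled to the depth of the library) in OE CD51 ICD and rank 73 in NC. CTGF was at rank 22 in OE CD51 ICD and rank 358 in NC.

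Levels of CTGF and CYR61 can be set against each other per kilobase within a library. The CTGF to CYR61 ratio of FPKM was 2.06, 2.15 and 1.97 in OE CD51 ICD and 0.238, 0.233 and 0.261 in NC. CTGF was thus above CYR61 in every OE CD51 ICD library and below it in every NC library. The mean log2 ratio was 3.08 higher in OE CD51 ICD, with a two-sided exact permutation p of 0.1, the smallest that 3 libraries against 3 can give (adjusted p = 0.1 over the 3 ratios compared).

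Another CCN gene moved the other way. NOV, or CCN3, encodes a CCN protein with antifibrotic effects described in kidney cells, where it opposes CTGF. NOV was at 12.4, 12.4 and 13.9 CPM in OE CD51 ICD and at 38.8, 37.7 and 42.3 CPM in NC, with no overlap, and fell 3.07-fold (log2 -1.62 ± 0.12 SE, adjusted p = 1.34e-12). WISP2 had 13 counts over the OE CD51 ICD libraries and 31 over the NC libraries and was not tested, and neither were WISP1, with no count, and WISP3, with 1 count in NC. The summed FPKM of CTGF, CYR61 and NOV was 1817 ± 52.5 in OE CD51 ICD and 578 ± 10.6 in NC, and CTGF held 67.1 ± 0.953% of it in OE CD51 ICD and 19.1 ± 0.908% in NC. This sum was added after the single values were seen.

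**Figure D2:**
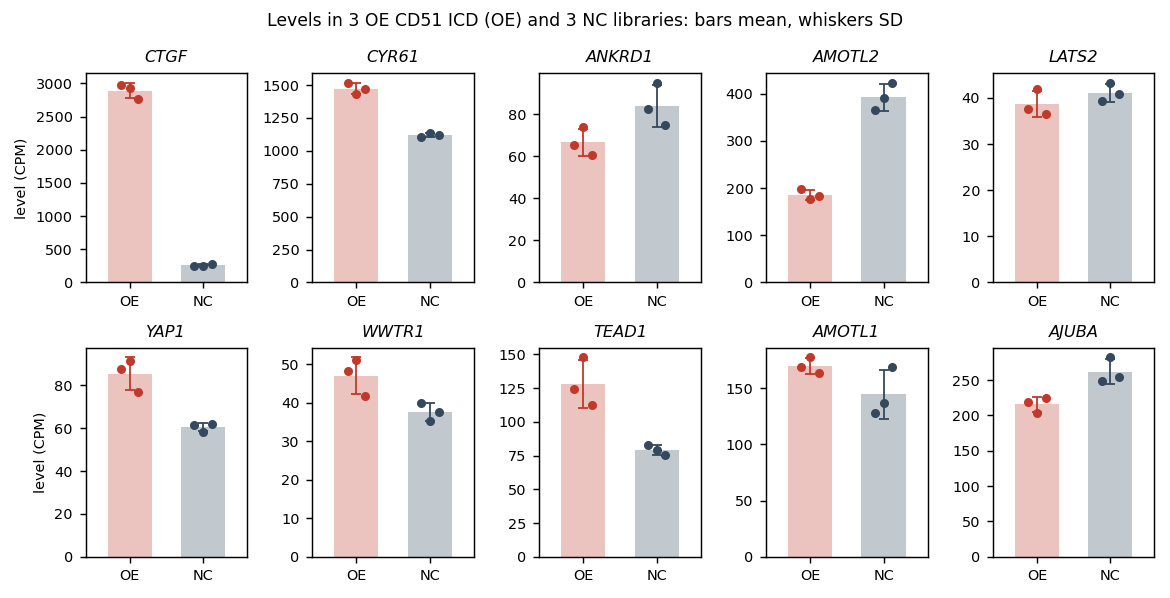
Level of each of the 10 genes in CPM in 3 OE CD51 ICD libraries (OE, left) and 3 NC libraries (right), with points for libraries, bars for means and whiskers for SD. The groups separate widely for CTGF and AMOTL2, lie apart by less for CYR61, YAP1, TEAD1, WWTR1, ANKRD1 and AJUBA, and overlap for AMOTL1 and LATS2.

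The remaining target, ANKRD1, was lower. ANKRD1 (ENSG00000148677, chromosome 10, 90912096 to 90921276) encodes a cardiac ankyrin repeat protein found at the sarcomere and in the nucleus, and is a standard readout of YAP activity. ANKRD1 was at 65.3, 73.7 and 60.7 CPM in OE CD51 ICD and at 82.6, 94.7 and 74.7 CPM in NC. The highest OE CD51 ICD library lay just under the lowest NC library. The fall was 1.26-fold (log2 -0.33 ± 0.10 SE, adjusted p = 0.00475). Without NC replicate 2 the log2 value was -0.25 and the call was lost (adjusted p = 0.0733, over a range of 1.24e-05 to 0.0736 for its alternatives). ANKRD1 and CTGF, whose promoters both hold several GGAATG matches, moved in opposite directions.

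Per kilobase, CTGF and CYR61 were the highest of the 10 genes in both groups. In OE CD51 ICD the order of mean FPKM was CTGF, CYR61, AJUBA, ANKRD1, AMOTL2, AMOTL1, YAP1, TEAD1, LATS2 and WWTR1, and the library range of ANKRD1 overlapped those of AJUBA and AMOTL2, which did not overlap each other. The ranges of YAP1 and TEAD1 also overlapped. In NC the order was CYR61, CTGF, AMOTL2, AJUBA, ANKRD1, AMOTL1, YAP1, TEAD1, LATS2 and WWTR1, and the ranges of AJUBA and ANKRD1 overlapped, as did those of TEAD1 and LATS2. CTGF spanned 1177 to 1261 FPKM in OE CD51 ICD and 106 to 118 FPKM in NC, where AMOTL2, the next gene, spanned 60.5 to 70.3 FPKM. WWTR1, the lowest in both, spanned 4.96 to 5.91 FPKM in OE CD51 ICD and 4.15 to 4.70 FPKM in NC. AMOTL2 held place 5 in OE CD51 ICD and place 3 in NC, and the lower 5 places were held by the same genes in both groups.

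Of the feedback genes, AMOTL2 fell and LATS2 did not pass. AMOTL2 (ENSG00000114019, chromosome 3, 134355874 to 134375479) encodes an angiomotin-like protein that binds YAP at junctions and activates LATS kinases. AMOTL2 was at 198, 177 and 183 CPM in OE CD51 ICD and at 366, 390.0 and 422 CPM in NC. The groups were widely separated, with OE CD51 ICD lower by 2.11-fold (log2 -1.08 ± 0.08 SE, adjusted p = 2.77e-12). LATS2 (ENSG00000150457, chromosome 13, 20973032 to 21061547), a kinase of YAP and TAZ, was at 37.5, 41.9 and 36.6 CPM in OE CD51 ICD and at 39.2, 43.2 and 40.8 CPM in NC. The groups overlapped, and the log2 fold change of -0.09 had a 95% interval of -0.29 to 0.12 (adjusted p = 0.497). On the linear scale that interval runs from 0.816 to 1.09 times the NC level.

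AMOTL1 (ENSG00000166025, chromosome 11, 94706431 to 94876753), the paralog of AMOTL2, did not share its fall. AMOTL1 was at 169, 177 and 163 CPM in OE CD51 ICD and at 128, 137 and 169 CPM in NC. NC replicate 3 lay among the OE CD51 ICD libraries, so the groups overlapped. The log2 fold change was 0.23 ± 0.09 SE (adjusted p = 0.0315). The call was lost in 9 of 19 alternatives, among them NC replicate 1 left out (0.15, adjusted p = 0.248), the GC trend removed (0.17, adjusted p = 0.0763) and library size as the only scaling (0.17, adjusted p = 0.111). It was also lost without NC replicate 2, OE CD51 ICD replicate 1 or OE CD51 ICD replicate 2 (0.19 to 0.25, adjusted p = 0.0668 to 0.149). Without NC replicate 3 the value was 0.36 (adjusted p = 0.00171). Leaving out NC replicate 1 or NC replicate 3 each moved the value by over 1.5 times, in opposite directions.

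Within a library, AMOTL1 stood at 0.509, 0.596 and 0.533 of the FPKM of AMOTL2 in OE CD51 ICD and at 0.208, 0.210 and 0.239 in NC. AMOTL2 was above AMOTL1 in every library. The mean log2 ratio was 1.32 higher in OE CD51 ICD (two-sided exact permutation p = 0.1, adjusted p = 0.1 over the 3 ratios).

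**Figure D3:**
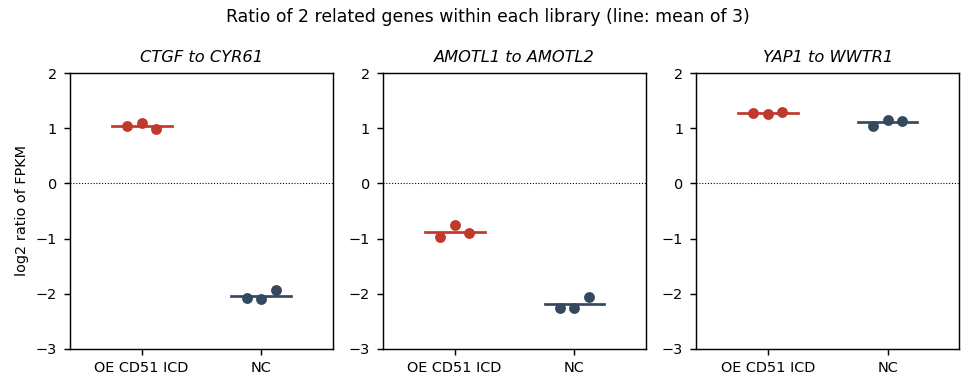
Log2 ratio of the deposited FPKM of 2 related genes within each library, for OE CD51 ICD (left) and NC (right), with lines at the means. The CTGF to CYR61 ratio lies above 0 in the 3 OE CD51 ICD libraries and below 0 in the 3 NC libraries, the AMOTL1 to AMOTL2 ratio lies below 0 in all 6, and the YAP1 to WWTR1 ratio lies above 0 in all 6.

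AJUBA (ENSG00000129474, chromosome 14, 22971174 to 22982642) encodes a LIM protein that binds LATS kinases at junctions under tension and restrains them. AJUBA was at 219.5, 204 and 225 CPM in OE CD51 ICD and at 249.5, 282 and 255 CPM in NC. The groups did not overlap, and OE CD51 ICD was 1.21-fold lower (log2 -0.28 ± 0.08 SE, adjusted p = 0.00449). Without NC replicate 2 the log2 value was -0.23 and the adjusted p = 0.0542, over a range of 0.000579 to 0.0542 for its alternatives. Of the other LIM genes of this family, WTIP fell (log2 -0.67) and LIMD1 was at -0.04 and did not pass.

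The coactivators and their TEAD partner were modestly higher. YAP1 (ENSG00000137693, chromosome 11, 102110461 to 102233423) was at 87.8, 91.4 and 76.7 CPM in OE CD51 ICD and at 61.7, 58.4 and 61.8 CPM in NC. The groups did not overlap, and YAP1 rose 1.41-fold (log2 0.49 ± 0.09 SE, adjusted p = 3.68e-05). WWTR1 (ENSG00000018408, chromosome 3, 149517235 to 149736714), the TAZ gene, was at 48.1, 51.1 and 41.8 CPM in OE CD51 ICD and at 39.9, 35.2 and 37.6 CPM in NC. The lowest OE CD51 ICD library lay just above the highest NC library, and the rise was 1.25-fold (log2 0.32 ± 0.10 SE, adjusted p = 0.00990). Without NC replicate 2 the call was lost (0.27, adjusted p = 0.0723). The YAP1 to WWTR1 ratio of FPKM was 2.44, 2.39 and 2.45 in OE CD51 ICD and 2.06, 2.22 and 2.20 in NC, a mean log2 difference of 0.17 (two-sided exact permutation p = 0.1, adjusted p = 0.1 over the 3 ratios).

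TEAD1 (ENSG00000187079, chromosome 11, 12674591 to 12944483), a TEAD factor that carries YAP and TAZ to DNA, was at 125, 148 and 112 CPM in OE CD51 ICD and at 82.6, 79.1 and 75.8 CPM in NC. All OE CD51 ICD libraries were above all NC libraries, though they were spread more widely, with a coefficient of variation of 14.0% against 4.33% in NC. TEAD1 rose 1.62-fold (log2 0.70 ± 0.09 SE, adjusted p = 2.75e-07).

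The other TEAD genes did not share that rise. TEAD4 was at 14.3 ± 2.43 CPM in OE CD51 ICD and at 34.1 ± 2.61 CPM in NC (SD, n = 3 each), without overlap, and fell 2.39-fold (log2 -1.26 ± 0.13 SE, adjusted p = 1.67e-09). TEAD2 and TEAD3 had log2 fold changes of -0.12 and -0.17 and did not pass. Per kilobase, the 4 TEAD genes summed to 33.7 ± 0.499 FPKM in OE CD51 ICD and 39.5 ± 0.607 FPKM in NC. TEAD1 held 36.6 ± 5.15% of that sum in OE CD51 ICD and 19.4 ± 0.485% in NC, and the groups did not overlap (two-sided exact permutation p = 0.1, a comparison added after the single values were seen). The GC content was 41.3% for TEAD1 and 58.4%, 59.8% and 60.4% for TEAD2, TEAD3 and TEAD4, and these shares are not adjusted for it. With the GC trend removed TEAD1 was at 0.46 and TEAD4 at -1.07 on the log2 scale, and both kept their calls. The part of GC content in the share of TEAD1 was not tested.

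GC content and chromosome moved with several of these changes. Over all genes tested, the third with the lowest GC content in its longest transcript had a median log2 fold change of 0.24 and the third with the highest had -0.24. WWTR1, TEAD1, ANKRD1 and YAP1 had GC contents of 40.9%, 41.3%, 43.3% and 43.5%, while the other 6 genes ran from 48.8% to 56.7%. With each library's GC trend removed, WWTR1 was at 0.09 and its call was lost (adjusted p = 0.397, over a range of 0.000910 to 0.397 for its alternatives). With the same removal TEAD1 was at 0.46 (adjusted p = 8.77e-06), YAP1 at 0.29 (adjusted p = 0.00151) and ANKRD1 at -0.54 (adjusted p = 1.24e-05), so the values of TEAD1, YAP1 and ANKRD1 each moved by over 1.5 times and kept their calls. CTGF, CYR61, AMOTL2 and AJUBA also kept their calls.

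TEAD1, YAP1 and AMOTL1, all among the higher genes, lie on chromosome 11. Its 792 tested genes had a median log2 fold change of 0.21, with 40.4% called higher and 17.3% lower, while the genes of the other chromosomes had a median of -0.00, with 24.2% higher and 26.3% lower. Of 53 tested genes that start within 5 Mb of TEAD1, 33 were higher and 4 lower, with a median of 0.50. Of 26 genes as near to AMOTL1, 14 were higher and 1 lower, with a median of 0.53. Of 16 genes as near to YAP1, 5 were higher and 3 lower, with a median of 0.10. Around CTGF 9 of 25 genes were higher and 4 lower, with a median of 0.35, against 3.47 for CTGF itself. Around AMOTL2 11 of 45 were higher and 6 lower, with a median of 0.13, against -1.08 for AMOTL2. Around CYR61 13 of 34 were higher and 2 lower, with a median of 0.33, near the 0.39 of CYR61 itself. Medians around ANKRD1, AJUBA, WWTR1 and LATS2 were -0.06, -0.06, -0.06 and -0.08. The part of the neighbourhood in the rise of CYR61 was not tested. The part of chromosome 11 in the rises of TEAD1, YAP1 and AMOTL1 was not tested, and on chromosome 11 20.5% of genes rose by at least as much as TEAD1, 33.1% as YAP1 and 48.6% as AMOTL1.

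**Figure D4:**
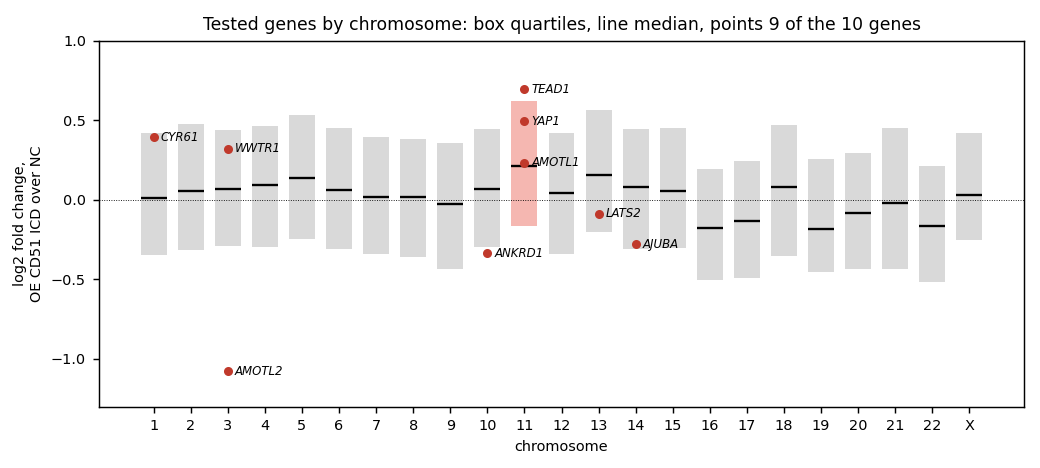
Log2 fold change of tested genes by chromosome, OE CD51 ICD over NC, with boxes from the lower to the upper quartile, black lines at the medians and points for 9 of the 10 genes (CTGF, at 3.47 on chromosome 6, lies above the axis). AMOTL1 lies at the median of chromosome 11 and YAP1 within its box, while TEAD1 lies above its box and AMOTL2 far below that of chromosome 3.

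The OE CD51 ICD libraries also differed among themselves in a shared way. ANKRD1, AMOTL1, YAP1, WWTR1, TEAD1 and LATS2, 6 of the 10 genes, were highest in replicate 2 and lowest in replicate 3. ITGAV had the same order, at 436, 536 and 371 CPM in replicates 1, 2 and 3. Over all genes tested 26.5% had this order, with 48.1% of the third lowest in GC content and 6.70% of the third highest.

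The other genes of the pathway were also divided. Over 5 lists of 57 different genes, 51 were tested. The test called 21 of them higher and 16 lower, and 14 did not pass. Their median log2 fold change was -0.02, beside 0.01 for all genes tested, and 72.5% were called, beside 51% of all genes.

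Among cofactors that compete with YAP and TAZ for TEAD proteins, VGLL4, a repressor of TEAD targets, rose. It was at 82.0, 74.6 and 68.4 CPM in OE CD51 ICD and at 49.9, 56.4 and 54.0 CPM in NC, with no overlap (log2 0.49 ± 0.09 SE, adjusted p = 6.53e-05). VGLL3 also rose (log2 0.53 ± 0.12 SE, adjusted p = 0.000390), with OE CD51 ICD replicate 3 at 79.4 CPM under NC replicate 1 at 82.7 CPM. Its log2 value was 0.28 with the GC trend removed, and limma on unfiltered log2(FPKM + 1) values gave no call (0.45, adjusted p = 0.113, over a range of 6.75e-07 to 0.113). VGLL2 was low in both groups, at 1.61 ± 0.531 CPM in OE CD51 ICD and 5.03 ± 0.156 CPM in NC, and fell (log2 -1.64 ± 0.26 SE, adjusted p = 5.09e-06). VGLL1 had no count.

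Of 18 Hippo kinases and adaptors, 9 were higher and 4 lower, while 5 did not pass. That is 72.2% called, beside 51% of all genes tested (25.2% higher and 25.8% lower). The 9 higher genes had GC contents of 34.3% to 46.6%, the 4 lower genes 54.4% to 65.3%, and the other 5 genes 37.3% to 53.4%. The part of GC content in this split was not tested. FRMD6, a FERM protein upstream of the kinases, was at 292, 325 and 257 CPM in OE CD51 ICD and at 40.8, 40.6 and 34.1 CPM in NC. The groups were far apart, and the rise was 7.55-fold (log2 2.92 ± 0.10 SE, adjusted p = 1.29e-20). STK38L, an NDR kinase, was at 22.5, 26.9 and 16.2 CPM in OE CD51 ICD and at 3.64, 3.26 and 4.66 CPM in NC (log2 2.50 ± 0.19 SE, adjusted p = 2.79e-12), and was named after its value was seen. LATS1, the partner kinase of LATS2, rose to 17.4 ± 2.64 CPM in OE CD51 ICD, against 10.8 ± 0.901 CPM in NC (log2 0.69, adjusted p = 0.000282). The largest fall was in RASSF1, an adaptor of the MST kinases (log2 -0.48 ± 0.11 SE, adjusted p = 0.000675), whose call was lost with the GC trend removed (-0.21, adjusted p = 0.0634, over a range of 1.42e-05 to 0.0634). The MST kinase genes STK3 and STK4, their adaptor SAV1, MOB1A and WWC3 did not pass.

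**Figure D5:**
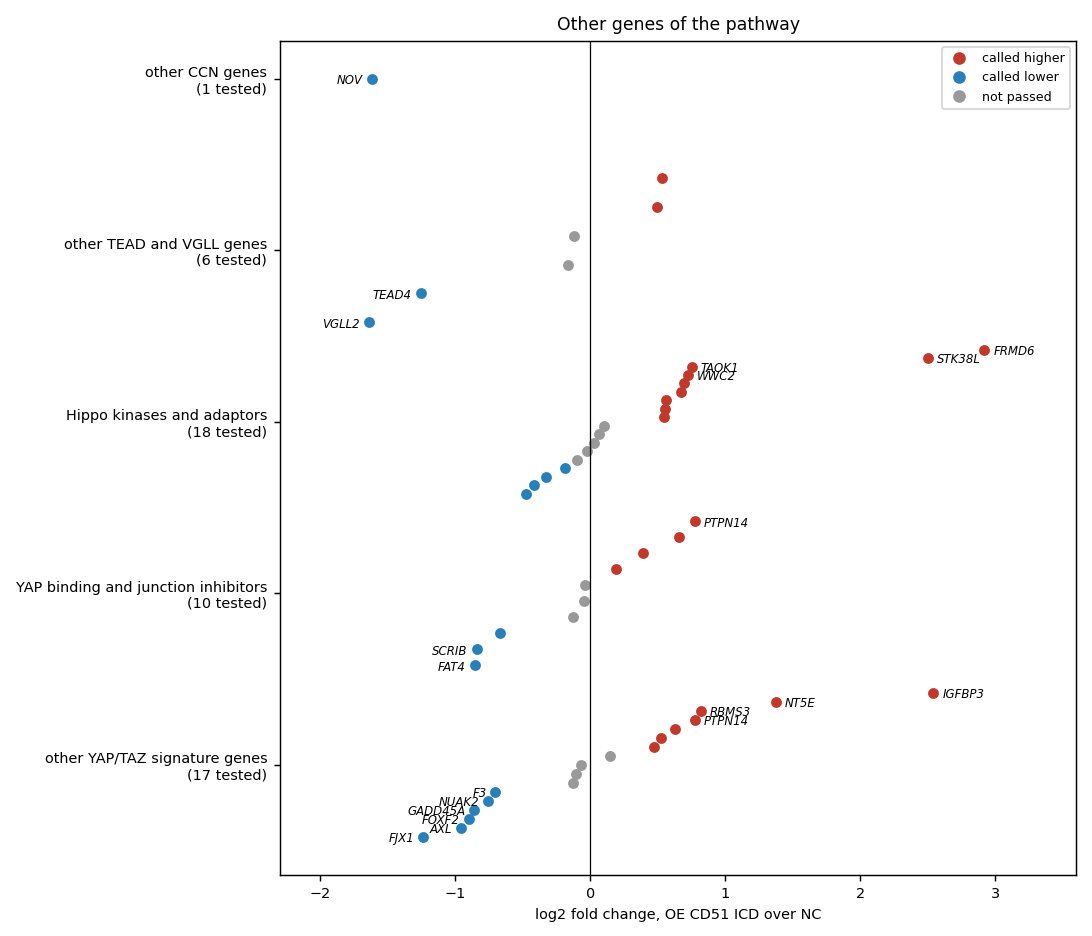
Log2 fold change, OE CD51 ICD over NC, of the tested genes of 5 further lists of the pathway, 1 point a gene, with names for those at least 0.7 from 0. Each list with more than 1 tested gene holds both higher and lower genes, with FRMD6, STK38L and IGFBP3 farthest to the right and VGLL2 and NOV farthest to the left.

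Of 10 tested genes for YAP binding and junctional inhibition, 4 were higher and 3 lower, while 3 did not pass. That is 70% called, beside 51% of all genes tested (25.2% higher and 25.8% lower). PTPN14, a phosphatase that holds YAP in the cytoplasm, was at 144 ± 12.7 CPM in OE CD51 ICD and 84.1 ± 6.30 CPM in NC (log2 0.77 ± 0.09 SE, adjusted p = 1.48e-08). FAT4, an atypical cadherin, was at 16.5 ± 2.70 CPM in OE CD51 ICD and 29.9 ± 2.22 CPM in NC (log2 -0.85 ± 0.13 SE, adjusted p = 1.92e-06). AMOT, the founding member of the angiomotin family, was at -0.13 on the log2 scale and did not pass. DLG1, TJP1 and CTNNA1 were the other higher genes, and SCRIB and WTIP the other lower ones.

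In a set of 22 YAP/TAZ targets known from tumour data, of which CTGF, CYR61, ANKRD1, AMOTL2 and LATS2 are part, 9 were higher and 8 lower, while 5 did not pass. That is 77.3% called, beside 51% of all genes tested (25.2% higher and 25.8% lower). Among the other 17 genes 7 were higher and 6 lower, while 4 did not pass, so 76.5% were called. Their median log2 fold change was -0.07. IGFBP3, a secreted binding protein of insulin-like growth factors, was at 2647, 2678 and 2242 CPM in OE CD51 ICD and at 461, 485 and 355 CPM in NC, a 5.81-fold rise (log2 2.54 ± 0.10 SE, adjusted p = 6.76e-19). FJX1, which encodes a secreted relative of Four-jointed in flies, was at 40.8, 33.5 and 43.1 CPM in OE CD51 ICD and at 88.4, 98.3 and 90.4 CPM in NC, a 2.36-fold fall (log2 -1.24 ± 0.10 SE, adjusted p = 8.98e-12). FJX1 lies on chromosome 11 and went against the median of that chromosome. Of the 12 of these 17 genes with a RefSeq promoter, 5 held GGAATG (41.7%, beside 14.3% of all genes with an entry). Of these 5 genes, PTPN14 and TGFB2 were higher and AXL, FOXF2 and NUAK2 were lower. The 17 genes were listed as known YAP/TAZ targets, so their share with GGAATG is no test of enrichment.

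The genes whose profile over the 6 libraries lay nearest to that of CTGF were PMEPA1, TSPAN2 and COL7A1, at Euclidean distances of 0.237, 0.255 and 0.275 on log2 CPM centred on each gene's mean, among 9573 protein-coding genes. PMEPA1, a feedback inhibitor of TGF-beta signalling, was at 379 ± 15.4 CPM in OE CD51 ICD and 31.5 ± 0.882 CPM in NC. TSPAN2, a tetraspanin, was at 21.0 ± 1.45 CPM in OE CD51 ICD and 1.86 ± 0.303 CPM in NC, and COL7A1, type VII collagen, at 146 ± 8.09 CPM in OE CD51 ICD and 12.2 ± 0.921 CPM in NC. The nearest profiles to CYR61 were those of CHPF2, TUT1 and DNASE1, at distances of 0.0624 to 0.0824. Those nearest to AMOTL2 were FCHO1, MYO18A and APBA2, at distances of 0.0994 to 0.139. No gene of the pathway lists was among these 9 genes. With only 57 other pathway genes listed and 9573 genes searched, that was likely beforehand, and nothing is concluded from it.

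Genes overlapping the 10 on either strand held few counts. The most was WWTR1-AS1, with 17 counts over OE CD51 ICD and 12 over NC, which is 0.762% of the counts of WWTR1. For FRMD6 it was FRMD6-AS1, at 1.13% of the counts of FRMD6.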

How the data were processed

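RNA from 3 OE CD51 ICD and 3 NC libraries was measured by messenger RNA sequencing. The authors deposited whole-number gene counts and FPKM values for the same libraries, none pooled, per the file headers. The build is hg38 per the submitters' processing notes; no source used here names the aligner, the counter or the strand setting. The labels name 2 RNA extraction products without saying which library had which. The deposited FPKM values equal the counts over gene length, scaled per library by 0.961 to 1.05 times its total count. All 58735 gene IDs and coordinates matched GENCODE 29.

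The test was the quasi-likelihood F test of edgeR 4.0.16 under R 4.3.3 (filterByExpr, TMM, glmQLFit, glmQLFTest, two-sided), with Benjamini-Hochberg adjustment over 13787 genes. Standard errors and 95% intervals came from the F statistic. CPM are scaled by TMM. In simulated counts of 13593 tested genes, with 200 changed and no GC trend, 80.9% of genes changed by a log2 fold of 1 were recovered. There 3.39% of calls were false. In the data 51% of genes were called and a GC trend was present, so that share does not carry over to these calls. Ratios were compared by exact permutation of libraries.

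The fit had no replicate block. Alternatives were scaling by RLE, upper quartiles or library size alone, other tools (DESeq2 1.42.0 and limma 3.58.1 (voom, and log2(FPKM + 1) or log2(FPKM + 0.1))), other filters, a left-out library, a replicate block, a GC trend removed by loess and scaling without chromosome 11. GC content was had for 99.96% of tested genes. Named by rule were the 10 genes, the largest called rise and fall of each pathway list, and every called TEAD, VGLL and CCN gene. The rule also named the 3 nearest profiles with a mean of at least 5 CPM. Further genes of the lists, among them LATS1, WTIP, LIMD1 and AMOT, were named outside that rule. The members and lists were chosen with earlier results of these data known. Plots used matplotlib 3.10.9 and tables pandas 2.3.3.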

Additional observations from a re-analysis of the deposited data

How the results depend on the processing

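CTGF, CYR61, AMOTL2, YAP1 and TEAD1 kept their call and direction under all 19 alternatives, and LATS2 passed under none. CTGF ranged from 3.41 to 3.52, CYR61 from 0.33 to 0.44, AMOTL2 from -1.14 to -0.94, YAP1 from 0.29 to 0.57 and TEAD1 from 0.46 to 0.79 on the log2 scale. AMOTL1 lost its call with the GC trend removed (0.17), with library size as the only scaling (0.17), in limma on log2(FPKM + 0.1) (0.23), and on log2(FPKM + 1) with or without the filter (0.22 in both). WWTR1 lost it with the GC trend removed (0.086) and in limma on log2(FPKM + 1) without the filter (0.26), where ANKRD1 also lost it (-0.33). With 1 library left out, AMOTL1 ranged from 0.15 to 0.36, WWTR1 from 0.27 to 0.41, ANKRD1 from -0.42 to -0.25 and AJUBA from -0.32 to -0.22. The cause was not tested.

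With the replicate block, 3437 genes were higher and 3552 lower, and no call among the 10 genes changed. Deviations of same-numbered libraries correlated at -0.05, 0.00 and 0.05, and not every library correlated best with its own number. These values gave no sign that the numbers pair the libraries, but with 3 libraries a group they cannot settle it. Counts of all genes ran from 2384 to 3801 higher and from 2730 to 4051 lower over the alternatives. Of the other pathway genes, 15 to 22 were higher and 15 to 18 lower. The median of chromosome 11, recomputed as a check chosen after seeing the data, was 0.15 when scaled by library size alone, 0.26 with upper-quartile scaling, 0.28 without a filter on counts, 0.20 on log2(FPKM + 0.1), and 0.12 and 0.044 on log2(FPKM + 1) with and without a filter. It ranged from 0.21 to 0.23 with 1 library left out. The ratios kept their direction in all 7 alternatives each. GGAATG occurred in 14.0% of promoters over the whole entry and in 11.9% over the 250 bases before the start.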
